A study of Mus musculus with 6 samples.

Results

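The 8 liver-enriched transcription factors described here were measured in mouse hepatocytes, the cells that carry out most of the metabolic work of the liver: *Foxa1*, *Foxa2*, *Foxa3*, *Onecut1*, *Onecut2*, *Cebpa*, *Cebpb* and *Prox1*. The 8 genes were chosen by name and are 8 of the 55487 genes in the count tables. All 8 passed the filter on low counts that left 12741 genes to test. *Prox1* was the 1 factor that differed between genotypes, at 119 CPM (counts scaled to a common library total) in the mutant against 138 CPM in wild type, a change of -13.5%. *Onecut1* had the largest estimate in the other direction, at 26.5 against 22.2 CPM, and did not pass the test.

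The mice were 6 to 8 weeks old. One genotype was wild type (WT) and the other carried AEG-1-C75S on both alleles, and heterozygous parents gave both. AEG-1 is the protein encoded by *Mtdh*, and C75S replaces a cysteine that carries a palmitoyl group with a serine. RNA was taken 48 h after the cells were isolated, and all 6 samples carry the same treatment label, Control. Each genotype had 3 libraries. The labels do not say that these are 3 separate mice, so the p-values measure the spread between libraries, which may be technical.

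Hepatocyte identity depends on a small set of transcription factors that bind the promoters and enhancers of the same liver genes and of one another. The FOXA proteins are forkhead factors that can bind their sites in closed chromatin and are needed for the liver to form. The ONECUT proteins, of which ONECUT1 is also called HNF6, carry a cut domain beside a homeodomain and act in hepatocytes and in bile duct cells. C/EBP-alpha and C/EBP-beta are leucine-zipper factors, the first tied to metabolic genes and the quiescent state, the second to the acute phase response and regeneration. PROX1 is a homeodomain factor of hepatocytes and of lymphatic endothelium that acts in part as a corepressor of nuclear receptors.

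The libraries held 16944723 to 21044292 gene counts, and C75S replicate 1 was the shallowest. A count of 3 stood for 0.142 to 0.172 CPM, far below every member. Unmapped reads made up 4.75% to 5.81% of the C75S libraries and 4.37% to 4.59% of the WT libraries, with the highest share in C75S replicate 1. Replicates of a genotype differed by more than counting noise (chi-square per degree of freedom 4.05 to 8.99). Hepatocyte markers summed to 75715, 80681 and 87877 CPM in C75S replicates 1 to 3 and to 84507, 92429 and 90071 CPM in WT replicates 1 to 3. The sums of other cell types were 37.5 to 49.9 CPM in C75S and 38.1 to 46.6 CPM in WT for vessel and sinusoid endothelium, 96.1 to 140 and 102 to 134 CPM for Kupffer cells and macrophages, and 4.44 to 6.55 and 4.99 to 5.24 CPM for stellate cells and fibroblasts. These sums overlapped between genotypes. Of the 8 Kupffer cell and macrophage markers, 2 could be tested, and a filter at 1 CPM in 3 libraries kept 1. That sum rests on few genes, so it is not compared with the sums of other cell types. Of the 7 endothelial markers that could be tested, 6 had higher estimates in C75S, against 6259 of the 12741 genes tested. On the log2 scale the 7 had a median of 0.34 and a range of -0.09 to 0.70. By edgeR, DESeq2 or limma-voom 0 were called, and 1 was under 0.05 before adjustment in edgeR (13.4% of all genes were). Of the markers of other cell types, *Cftr* of bile ducts and *Pdpn* and *Ccl21a* of lymphatic vessels had no count in any library.

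The promoter of *Prox1*, the factor that differed, is printed here with 4 shorter stretches, because these are the places where letters known as binding motifs were found before the RefSeq start in the genes searched. The sequences are from RefSeq (GRCm38.p6), are written 5′ to 3′ on the strand of the gene, and capitals mark the motif. For 7 of the 8 genes the 250 bases before the RefSeq start were searched on both strands. The FOXA motif was spelled TGTTTAC. The ONECUT motif was spelled ATTGAT. The motif of C/EBP proteins was spelled TTGCNNAA. The motif of the nuclear receptor HNF4 was spelled CAAAGTCCA. The TATA box was spelled TATAAA. *Onecut2* is named only. The RefSeq start of *Foxa1* lies 805 bases inside the GENCODE gene, so its window is within that gene model.
Prox1, chr1:190170828-190171077, minus strand, TATAAA on the opposite strand: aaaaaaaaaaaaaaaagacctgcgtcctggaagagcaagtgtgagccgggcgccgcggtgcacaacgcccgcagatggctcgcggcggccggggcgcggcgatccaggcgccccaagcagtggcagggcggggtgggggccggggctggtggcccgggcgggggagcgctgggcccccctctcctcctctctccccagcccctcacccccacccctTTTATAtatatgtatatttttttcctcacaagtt
Foxa1, chr12:57546236-57546262, minus strand, FOXA motif on the opposite strand: atactgctttGTAAACAaagtgagggc
Foxa2, chr2:148047167-148047192, minus strand, ONECUT motif: aaggcccattATTGATtttttttctc
Foxa3, chr7:19023560-19023585, minus strand, TATAAA: gtgtcccggcTATAAAaagtggctgc
Cebpa, chr7:35119253-35119278, plus strand, TATAAA: cccgaccctcTATAAAagcggtcccc
The *Foxa1* stretch held the FOXA letters and the *Foxa2* stretch held the ONECUT letters. Over the windows of 27026 genes, 1 per gene, 3.06% held the FOXA motif, 6.95% the ONECUT motif, 9.55% the C/EBP motif, 0.377% the HNF4 motif and 13% the TATA box. Those windows lay before the most upstream RefSeq start of each gene. The windows of the factors lay before the RefSeq start nearest to the GENCODE start, so the choice of window was not the same. The TATAAA of *Foxa3* lay 31 bases before the RefSeq start and that of *Cebpa* 25 bases. That of *Prox1*, on the opposite strand, lay 29 bases before the RefSeq start. The RefSeq start of *Prox1* is itself 113 bases upstream of the GENCODE start. The C/EBP and HNF4 letters were found in 0 of the 7 windows. A match describes the letters and is not a bound site.

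**Figure D1:**
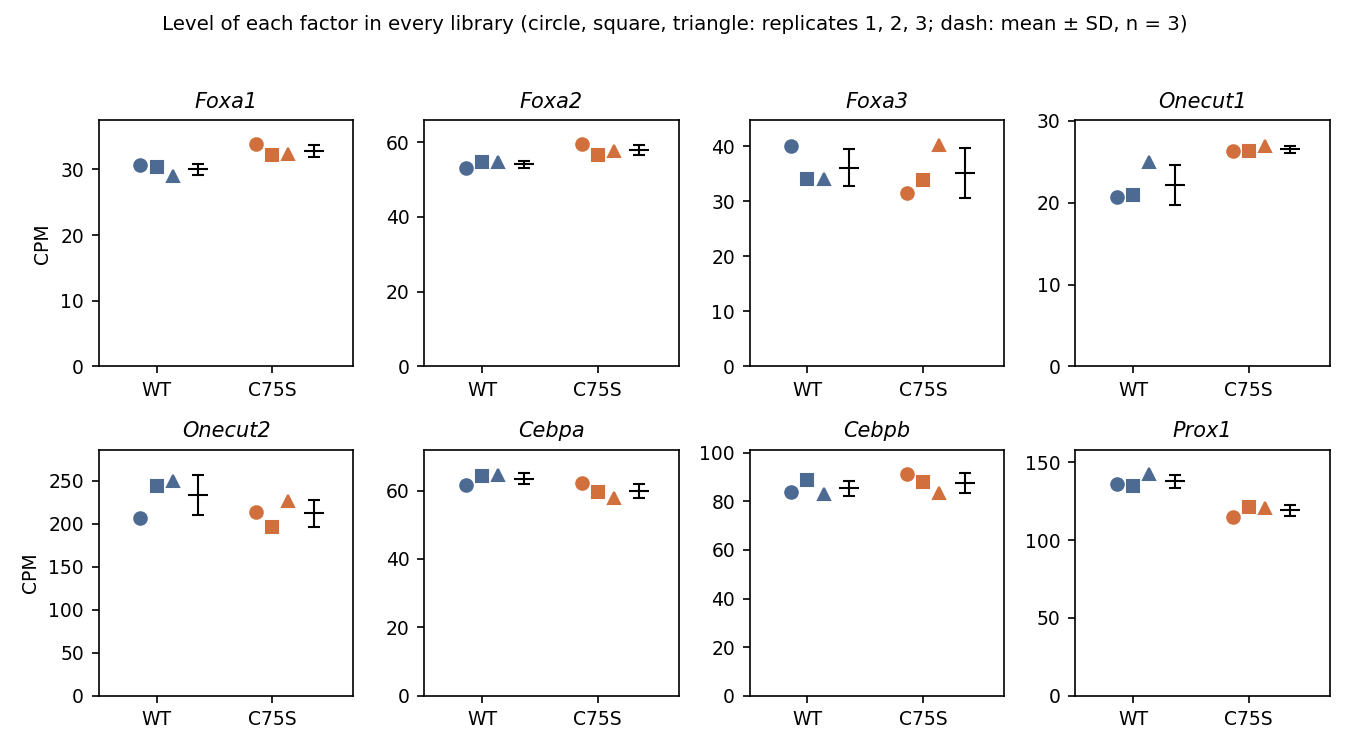
Level of each of the 8 factors in CPM (vertical axis, from 0) in the 3 WT libraries (blue) and the 3 C75S libraries (orange), with the mean and SD of each genotype as a dash with bars. *Prox1* was at 115 to 121 CPM in C75S and at 135 to 142 CPM in WT, while the genotypes overlapped for *Foxa3*, *Onecut2*, *Cebpa* and *Cebpb*.

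The quasi-likelihood test of edgeR called 1 of the 8 factors at an adjusted p of 0.05, against 3.11% of all genes tested. That factor was called lower, as were 1.37% of genes, and 0 factors were called higher, against 1.74% of genes. For 4 of the 8 the genotypes did not overlap, against 18.0% of all genes. Of these, *Foxa1*, *Foxa2* and *Onecut1* were higher (9.02% of genes) and *Prox1* was lower (8.96%). Before adjustment 2 factors, *Prox1* and *Onecut1*, were under 0.05, against 13.4% of genes. The median log2 fold change of the 8 was -0.001, and that of all genes -0.003. With all libraries kept, the share of genes called was 3.08% with RLE factors, 3.17% with upper-quartile factors, 3.23% with library size alone, 2.80% in DESeq2, 2.99% in limma-voom, 2.46% without the filter, 3.31% with a filter at 1 CPM, 3.01% without regard to strand, 3.77% with the replicate block and 3.05% with the length and GC correction, and *Prox1* was the 1 factor called each time. Without C75S replicate 1, 2 or 3 it was 1.95%, 2.43% or 2.72%, and without WT replicate 1, 2 or 3 it was 2.73%, 1.55% or 1.89%.

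*Prox1* (ENSMUSG00000010175, chromosome 1, 190118035 to 190170714, minus strand of GRCm38, protein coding) was at 115, 121 and 121 CPM in C75S replicates 1 to 3 and at 136, 135 and 142 CPM in WT replicates 1 to 3. Every C75S library was below every WT library, and the gap between them was wider than the SD within either genotype (3.40 CPM for C75S, 4.03 CPM for WT, 3 libraries each). The log2 fold change was -0.21 (SE 0.05, 95% interval -0.31 to -0.11, edgeR adjusted p = 0.018). Its direction held in all 16 alternative fits, with values from -0.22 to -0.19. The call was lost without C75S replicate 1 (log2 fold change -0.19, adjusted p = 0.0931), without WT replicate 2 (-0.22, 0.0582) and without WT replicate 3 (-0.19, 0.0918).

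The exons of *Prox1* share 133 bases with *Prox1os*, a noncoding transcript that starts on the opposite strand and runs away from the gene. *Prox1os* had 12, 8 and 14 counts in C75S and 18, 30 and 19 in WT, so its libraries were also all lower in C75S. At these counts its log2 fold change of -0.84 (SE 0.42) did not pass the test (edgeR adjusted p = 0.392). Reads on the strand opposite to *Prox1* came to 0.273% of its own counts.

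PROX1 also marks lymphatic endothelium. Of the 5 lymphatic markers, *Pdpn* and *Ccl21a* were at 0 counts in all 6 libraries. *Lyve1*, a hyaluronan receptor, was at 2.09 to 2.99 CPM in C75S and at 1.17 to 1.66 CPM in WT. Every C75S library was higher (9.02% of all genes were). *Flt4*, a vascular growth factor receptor, was at 5.56 to 6.60 CPM in C75S and at 5.27 to 6.97 CPM in WT. Of the 3 markers tested, 1 had a higher estimate, that of *Lyve1*, and 2 had lower estimates. Their median was -0.03 and their range -0.36 to 0.85 on the log2 scale, and edgeR called 0 of them. The list summed to 58.3 to 74.9 CPM in C75S and to 72.7 to 96.2 CPM in WT, and most of it was *Reln*, which stellate cells also express. *Reln* was at 59.1, 49.9 and 67.2 CPM in C75S and at 65.8, 88.1 and 71.6 CPM in WT, with overlap (-0.36 on the log2 scale, SE 0.15, adjusted p = 0.394 in edgeR). DESeq2 and the fit without the filter each called 1 of the 3 markers, *Reln*, lower. In these fits 2.80% and 2.46% of genes were called in either direction. The sums overlapped between genotypes, and the part of these cells in the *Prox1* difference was not tested.

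*Prox1* is a long transcript, so its value was also read beside transcript length. Among genes with more than 8 kb of merged exon, the class of *Prox1*, the median log2 fold change was -0.02, and among genes of up to 2 kb it was 0.02. With a correction of each library for exon length and GC content, chosen after the data had been seen, the log2 fold change of *Prox1* was still -0.21 (edgeR adjusted p = 0.0165).

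Over the 6 libraries the profiles nearest to that of *Prox1*, among 6677 genes of at least 20 CPM, were those of *Heca*, *Iigp1* and *Nfia*. Likeness was the root mean square distance between log2 CPM profiles centred on their own means. It was 0.0179 for *Heca*, 0.0202 for *Iigp1* and 0.0205 for *Nfia*, against a median of 0.130 over the candidates. *Nfia*, a transcription factor of the nuclear factor I family, was at 82.9 to 86.1 CPM in C75S and at 92.8 to 100 CPM in WT. *Iigp1*, an interferon-inducible GTPase, passed the test (log2 fold change -0.19, edgeR adjusted p = 0.0292), while *Heca* (-0.18, 0.153) and *Nfia* (-0.18, 0.0629) did not. The lower values of these genes in C75S follow from their choice by likeness to *Prox1* and are not a separate result.

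**Figure D2:**
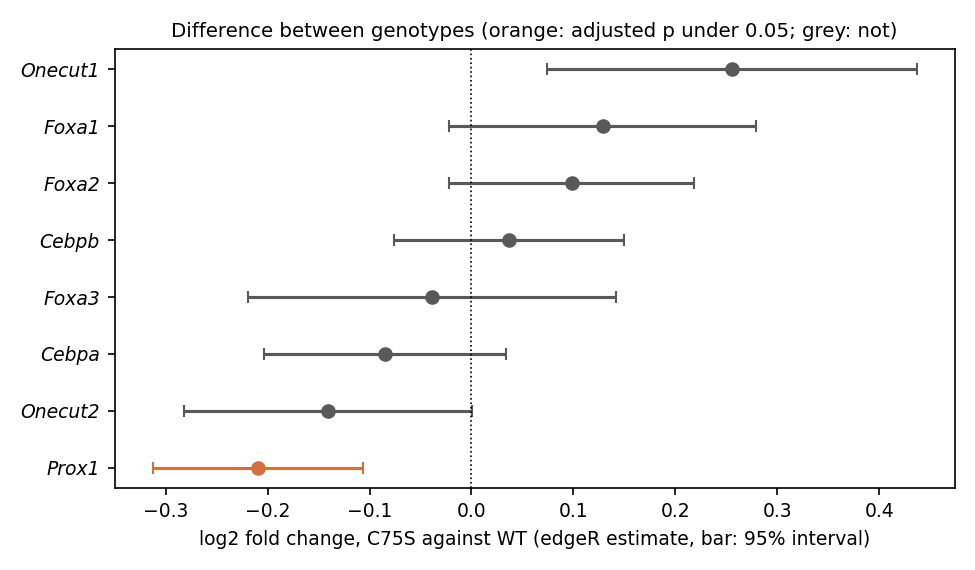
Log2 fold change of each factor, C75S against WT (horizontal axis), as estimated by edgeR with its 95% interval; orange marks an adjusted p under 0.05. *Prox1* lies at -0.21 with an interval from -0.31 to -0.11, and *Onecut1* at 0.26 with an interval from 0.07 to 0.44.

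The ONECUT genes had estimates of opposite sign. *Onecut1* (ENSMUSG00000043013, chromosome 9, 74861921 to 74891781, plus strand) was at 26.3, 26.3 and 27.0 CPM in C75S and at 20.7, 20.9 and 25.03 CPM in WT. All C75S libraries were higher, and WT replicate 3 lay closest to them. The log2 fold change of 0.26 (SE 0.09, interval 0.07 to 0.44) had an unadjusted p-value of 0.00767 and did not pass adjustment over all genes (edgeR adjusted p = 0.137). Leaving out 1 library at a time gave estimates from 0.21 without WT replicate 1 (adjusted p = 0.312) or WT replicate 2 (0.380) to 0.35 without WT replicate 3 (0.0505).

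The count of *Onecut1* may rest on part of its transcript. In GENCODE M21 a noncoding gene on the same strand, *Gm20649*, shares 2171 bases, or 52.8%, of the merged exons of *Onecut1*. *Gm20649* itself had 0 counts in all libraries. If the annotation used for counting held the same models, reads in the shared part went to neither gene and the count of *Onecut1* comes from the other 1.94 kb. That annotation is not given in the sources used here, and this was not tested.

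Since ONECUT1 is also a factor of bile duct cells, cholangiocyte markers were read beside it. The 10 markers, of which 6 could be tested, summed to 186 to 240 CPM in C75S and to 165 to 172 CPM in WT, without overlap. *Spp1*, a secreted phosphoprotein that made up the largest share of this sum, was at 105 to 157 CPM in C75S and at 83.9 to 96.5 CPM in WT. *Krt19*, a keratin of bile ducts, was at 8.21 to 10.6 CPM against 5.19 to 5.70 CPM. It was the 1 marker of the 6 called higher (edgeR adjusted p = 0.00151), against 1.74% of all genes. Of the 6, 4 had higher and 2 lower estimates, with a median of 0.46 and a range of -0.06 to 0.80 on the log2 scale. Before adjustment 3 of the 6 were under 0.05 in edgeR, against 13.4% of all genes. Without C75S replicate 1 the median was 0.19 and 3 of the 6 estimates were lower. *Sox9*, a duct factor also counted among the liver factors here, differed by -0.06 on the log2 scale (adjusted p = 0.822 in edgeR), and *Cftr* was at 0 throughout. The part of bile duct cells in the *Onecut1* values was not tested. In bulk libraries a change in the number of cells of a type and a change in RNA per cell cannot be told apart.

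*Onecut2* (ENSMUSG00000045991, chromosome 18, 64340020 to 64400987, plus strand) had the most counts of the 8 factors. It was at 214, 196 and 226 CPM in C75S and at 207, 244 and 250 CPM in WT. WT replicate 1 lay among the C75S libraries, so the genotypes overlapped. The log2 fold change of -0.14 (SE 0.07, interval -0.28 to 0.001) did not pass the test (edgeR adjusted p = 0.378). Without WT replicate 1 the estimate was -0.22 with an adjusted p of 0.0441, the single fit of 16 alternatives in which *Onecut2* was called. Leaving out C75S replicate 2 gave -0.09 (adjusted p = 0.706) and leaving out WT replicate 3 gave -0.09 (0.669).

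The ratio of *Onecut2* to *Onecut1* counts within a library needs no scaling between libraries. Its log2 value was 3.02, 2.89 and 3.07 in C75S and 3.32, 3.54 and 3.32 in WT. All C75S libraries were lower, by 0.40 on average (2.99 ± 0.09 against 3.39 ± 0.13, SD of 3 libraries). A two-sided exact permutation test gave p = 0.1, the smallest that 3 against 3 libraries allow, or 0.15 adjusted over the 3 ratios computed.

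The FOXA genes, which encode the forkhead factors, differed little. *Foxa1* (ENSMUSG00000035451, chromosome 12, 57540628 to 57546916, minus strand) was at 33.8, 32.3 and 32.4 CPM in C75S and at 30.6, 30.3 and 29.1 CPM in WT. *Foxa2* (ENSMUSG00000037025, chromosome 2, 148042877 to 148046969, minus strand) was at 59.5, 56.7 and 57.5 CPM in C75S and at 53.0, 54.6 and 54.6 CPM in WT. Both were higher in every C75S library, by log2 fold changes of 0.13 (SE 0.07, interval -0.02 to 0.28) for *Foxa1* and 0.10 (SE 0.06, interval -0.02 to 0.22) for *Foxa2*. Neither passed the test, with edgeR adjusted p-values of 0.479 and 0.503. The upper ends of the intervals correspond to rises of 1.21-fold and 1.16-fold.

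*Foxa3* (ENSMUSG00000040891, chromosome 7, 19013284 to 19023538, minus strand) encodes the third member of the family. It was at 31.5, 33.8 and 40.2 CPM in C75S and at 40.0, 34.2 and 34.2 CPM in WT, with the highest and the lowest library both in C75S. Its spread on the log2 scale (SD 0.18 in C75S and 0.13 in WT) was the widest of the 8 factors in C75S. The log2 fold change of -0.04 (SE 0.09, interval -0.22 to 0.14, edgeR adjusted p = 0.906) changed sign without C75S replicate 1 (0.03) or WT replicate 1 (0.04). The log2 ratio of *Foxa3* to *Foxa2* counts lay between -0.92 and -0.52 in C75S and between -0.68 and -0.41 in WT (two-sided exact permutation p = 0.4 over the libraries).

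Per kilobase of exon, *Foxa2* made up 45.2% to 49.5% of the summed FOXA transcripts in C75S and 43.7% to 47.5% in WT, *Foxa3* 30.5% to 36.7% and 34.3% to 38.4%, and *Foxa1* 18.1% to 20.05% and 18.0% to 18.6%. The genotypes overlapped in each share. The sum of the 3 genes averaged 51.5 ± 1.89 CPM per kilobase over the C75S libraries and 49.6 ± 1.46 over the WT libraries (SD of 3).

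The C/EBP genes did not pass the test in either direction. *Cebpa* (ENSMUSG00000034957, chromosome 7, 35119293 to 35121928, plus strand) was at 62.1, 59.5 and 57.9 CPM in C75S and at 61.6, 64.3 and 64.4 CPM in WT. C75S replicate 1 lay above WT replicate 1, and the other two C75S libraries were below all WT libraries. Its log2 fold change was -0.08 (SE 0.06, interval -0.20 to 0.03, edgeR adjusted p = 0.573). *Cebpb* (ENSMUSG00000056501, chromosome 2, 167688915 to 167690418, plus strand) was at 91.4, 88.0 and 83.5 CPM in C75S and at 84.0, 89.0 and 83.2 CPM in WT, a log2 fold change of 0.04 (SE 0.05, interval -0.08 to 0.15, edgeR adjusted p = 0.840). The genotypes overlapped for *Cebpb*, and the interval spans 0.949-fold to 1.11-fold.

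The balance between these factors is often read as a ratio. The log2 ratio of *Cebpa* to *Cebpb* counts was -0.56, -0.56 and -0.53 in C75S and -0.45, -0.47 and -0.37 in WT. All C75S libraries were lower, by 0.12 on average (-0.55 ± 0.02 against -0.43 ± 0.05, SD of 3 libraries). The two-sided exact permutation p was 0.1, again the smallest possible, and 0.15 adjusted over the 3 ratios. Strand mattered for *Cebpb*: it shares 312 bases, 20.7% of its exon, with *Tmem189* on the opposite strand, and counting without regard to strand left it 71.3% of its counts. *Cebpa* shares 51 bases with the antisense transcript *Gm45091*, which had 2 to 4 counts per library.

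**Figure D3:**
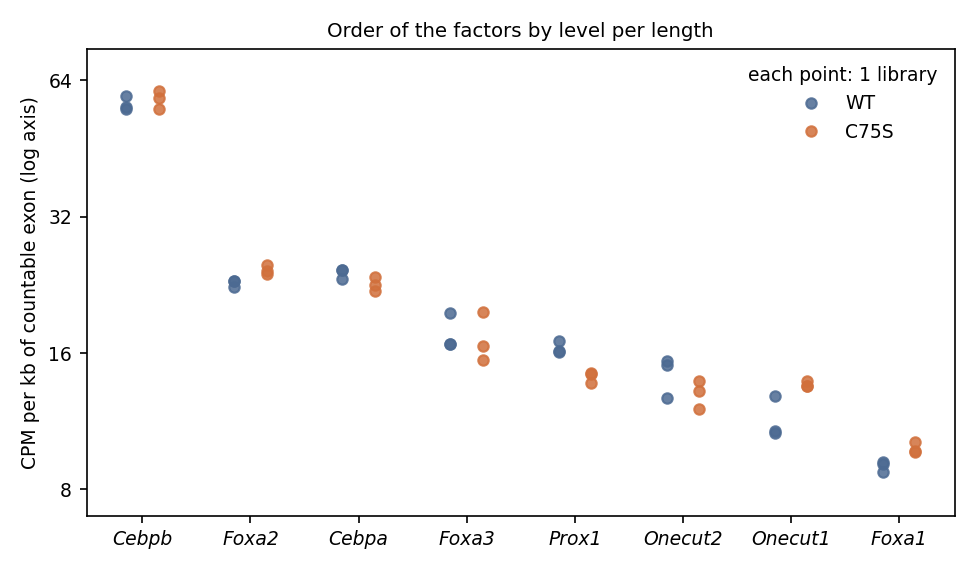
Level of each factor in CPM per kilobase of countable exon (vertical axis, log scale), 1 point per library, WT in blue and C75S in orange, with the factors ordered by their mean. *Cebpb* stands above the rest at 55.3 to 60.8, and *Foxa1* lies lowest at 8.74 to 10.2.

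Levels of different genes were compared per kilobase of the merged exons that no other gene on the same strand shares. On this scale *Cebpb* was the most abundant factor, at 57.5 ± 2.28 CPM per kilobase (SD over 6 libraries), above 94.9% of the tested genes with a known length. *Foxa2* (23.6 ± 0.99) and *Cebpa* (23.4 ± 0.98) followed, *Foxa2* being 2.43-fold lower. These neighbours did not differ beyond their spread (ratio of means 1.01). *Foxa2* was above *Cebpa* in all 3 C75S libraries and below it in all 3 WT libraries. This order was noticed after the values were seen, was not tested and depends on the exon lengths used. Neither gene passed the test between genotypes.

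Below them came *Foxa3* (17.5 ± 1.77), *Prox1* (15.3 ± 1.28), *Onecut2* (13.7 ± 1.31) and *Onecut1* (12.5 ± 1.46). Among these 4 the ranges of neighbours overlapped, although *Prox1* was above *Onecut2* within each of the 6 libraries. *Foxa1* was lowest at 9.44 ± 0.52 CPM per kilobase, above 65.9% of tested genes, and its range did not reach that of *Onecut1*. *Onecut2*, first by counts, ranked sixth because its merged exons span 16.2 kb. With its full exon length *Onecut1* would be at 5.92 CPM per kilobase, under *Foxa1*, so its place in this order is uncertain. The lengths are those of the annotation, not of the isoforms present.

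**Figure D4:**
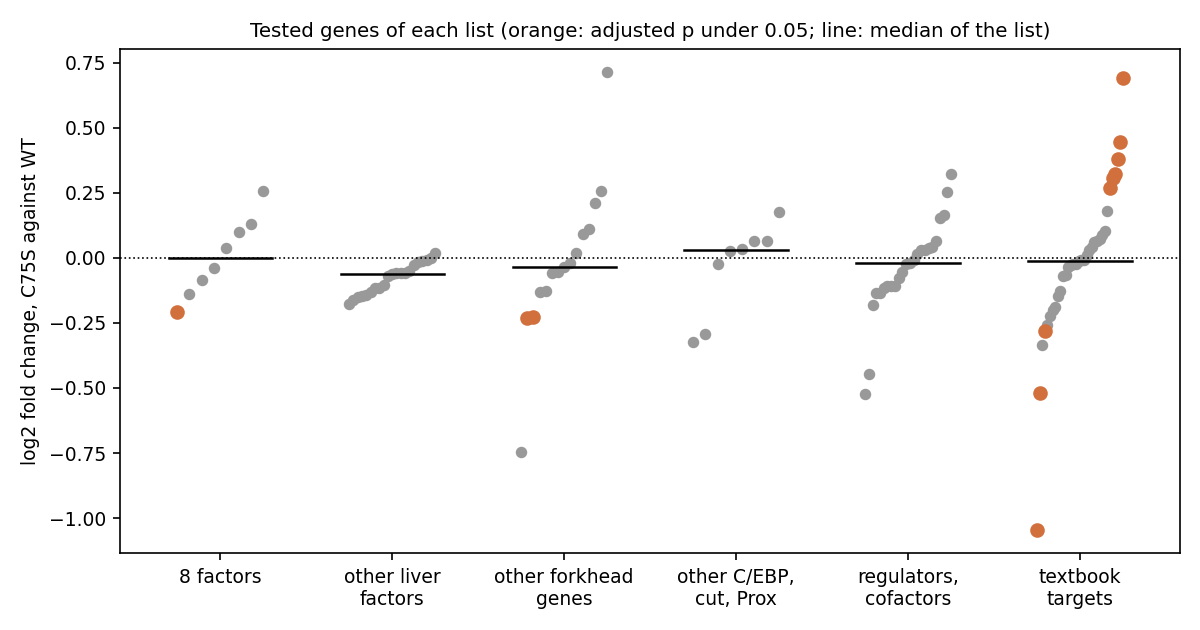
Log2 fold change, C75S against WT (vertical axis), of every tested gene in 6 lists; orange marks an adjusted p under 0.05 and the line is the median of the list. The 8 factors span -0.21 to 0.26, and the other liver factors lie between -0.18 and 0.02.

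Other factors of the hepatocyte network were read as a list of 24, of which 21 could be tested. None passed the adjusted threshold in edgeR, DESeq2 or limma-voom, and 1 was under 0.05 before adjustment in edgeR, against 13.4% of all genes. That gene was *Nr1h4*, the bile acid receptor FXR (log2 fold change -0.16, edgeR adjusted p = 0.154). The estimates were small and 20 of the 21 lay below 0, against 6482 of the 12741 genes tested. The 21 had a median of -0.06 and a range from -0.18 to 0.02. With library-size scaling alone, or without WT replicate 1, 17 of the 21 lay below 0. *Hnf4a*, a nuclear receptor that ties the network together, averaged 555 ± 18.8 CPM over the C75S libraries and 580.1 ± 20.4 CPM over the WT libraries (SD of 3; log2 fold change -0.06, interval -0.17 to 0.04, edgeR adjusted p = 0.654).

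Of the 41 other forkhead genes, 15 had no count in any library and 15 could be tested. *Foxo1* and *Foxo3*, forkhead factors that insulin signalling keeps out of the nucleus, fell (2 of 15 called lower, against 1.37% of all genes), and 0 of the 15 were called higher (1.74%). Estimates were higher for 6 of the 15 and lower for 9. The genes without overlap that were not called are named after their values were seen. *Foxp2* (0.71, adjusted p = 0.124 in edgeR), *Foxn2* (0.21, 0.289) and *Foxk2* (0.09, 0.522) were higher in every C75S library (9.02% of all genes were). *Foxn3* (-0.13, 0.179) and *Foxk1* (-0.06, 0.709) were lower in every C75S library (8.96%). *Foxo1* was at 136, 138 and 147 CPM in C75S and at 155, 170 and 169 CPM in WT (log2 fold change -0.23, SE 0.05, edgeR adjusted p = 0.0148). *Foxo3* was at 78.0, 80.5 and 77.8 CPM in C75S and at 92.5, 99.1 and 86.2 CPM in WT (-0.23, SE 0.06, edgeR adjusted p = 0.021). For both, every C75S library was below every WT library. *Foxo1* was not called when C75S replicate 1 or 2, or WT replicate 2 or 3, was left out (adjusted p up to 0.117). *Foxo3* was not called when C75S replicate 1 or 3, or WT replicate 2, was left out (up to 0.187).

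The other C/EBP, cut-homeobox and Prox genes gave 0 calls among the 8 of 11 that could be tested, in edgeR, DESeq2 and limma-voom. In edgeR 0 of the 8 were under 0.05 before adjustment, against 13.4% of all genes. *Cebpd*, an acute phase partner of *Cebpb*, had a log2 fold change of 0.07 (interval -0.15 to 0.28), and *Onecut3* was at 0 counts in all 6 libraries. Among 24 genes listed as regulators and cofactors of C/EBP and FOXA proteins, all tested, 0 were called by edgeR, DESeq2 or limma-voom. In edgeR 5 of the 24 were under 0.05 before adjustment, against 13.4% of all genes. These were *Akt1*, *Tle1*, *Il6st*, *Trib1* and *Grip1*, named after their values were seen. *Trib1*, which targets C/EBP-alpha for degradation, had a log2 fold change of -0.13 (adjusted p = 0.288), and *Akt1*, a kinase of insulin signalling, one of 0.15 (adjusted p = 0.101).

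Textbook target genes of the 8 factors went both ways. Of 34 genes, all tested, 6 rose (1.74% of all genes did) and 3 fell (1.37%), with a median of -0.01 and a range from -1.05 to 0.69. The 4 with the smallest p-values all rose: *Apoa2*, an apolipoprotein of high-density lipoprotein, and *Fgg*, *Fgb* and *Fga*, the chains of fibrinogen. *Apoa2* was at 483, 473 and 549 CPM in C75S and at 370, 386 and 350 CPM in WT (log2 fold change 0.45, SE 0.06, edgeR adjusted p = 2.91e-05). *Fgg* rose by 0.38, *Fgb* by 0.32 and *Fga* by 0.27 on the log2 scale, and *Fga* was not called with C75S replicate 2 or WT replicate 2 left out (adjusted p up to 0.1).

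The other called targets are named after their values were seen. *Afp*, the fetal serum protein of the liver, averaged 7.95 ± 1.41 CPM over the C75S libraries and 4.94 ± 0.62 CPM over the WT libraries (SD of 3). *Cyp2e1*, an oxidising enzyme of ethanol and drugs, was at 110 to 117 CPM in C75S and at 83.1 to 104 CPM in WT. *G6pc*, the last enzyme of glucose release, was at 1.64 ± 0.53 CPM against 3.40 ± 0.95 CPM in WT. *Slc10a1*, a bile acid importer, was at 10.6 ± 1.63 against 15.2 ± 0.85 CPM, and *Hpd*, an enzyme of tyrosine breakdown, at 38.0 ± 2.27 against 46.3 ± 5.40 CPM. DESeq2 did not call *G6pc* (adjusted p = 0.0675) or *Hpd* (0.0939), and limma-voom did not call *Hpd* (0.0595). With 1 library left out, *G6pc* was not called in 4 of 6 fits (C75S replicate 1 or 2, WT replicate 1 or 2; adjusted p up to 0.171, log2 fold change -1.33 to -0.80 over the alternatives). *Hpd* was not called in 4 of 6 (C75S replicate 1 or 3, WT replicate 2 or 3; up to 0.305, -0.34 to -0.18), nor *Slc10a1* in 2 of 6 (C75S replicate 1, WT replicate 2; up to 0.0895). *Afp* was not called with C75S replicate 2, WT replicate 1 or WT replicate 3 left out (adjusted p up to 0.147), nor *Cyp2e1* with WT replicate 3 left out (0.065). Leaving out C75S replicate 1 gave 0 falls and 7 rises among the targets, and leaving out WT replicate 2 gave 0 falls and 5 rises. The replicate block gave 6 falls and 6 rises, the fit without the filter 5 and 7, limma-voom 2 and 6, and DESeq2 1 and 6. *Cyp7a1*, the first enzyme of bile acid synthesis and a gene that PROX1 is known to repress, was at 1.47 to 1.82 CPM in C75S and at 1.56 to 1.99 CPM in WT, with a log2 fold change of -0.13 (adjusted p = 0.907 in edgeR). *Alb*, bound by FOXA and C/EBP factors in liver, differed by -0.15 on the log2 scale (adjusted p = 0.347 in edgeR).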

How the data were processed

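Raw read counts per Ensembl gene, deposited by the authors in STAR's layout, were used for 6 libraries (3 C75S, 3 WT; groups from the titles). Per the submitters' processing notes the tools named are Trim Galore 0.6.6, STAR 2.7.9a and edgeR 3.36.0, and the build is mm10 (GRCm38). The annotation release is not given in the sources used here. Reads that map to several places or to overlapping genes are left out of such counts. The reverse-strand column was used (33.3 times the forward total), without the 4 summary rows. Positions and exon lengths are from GENCODE M21.

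Genes were filtered with filterByExpr (minimum count 10), scaled by TMM and tested with edgeR 4.0.16 (quasi-likelihood F-test, robust, genotype alone). Benjamini-Hochberg adjustment ran over all 12741 genes. SE is the log2 fold change over the root of F. CPM uses TMM-scaled totals. Ratios had 0.5 added to each count. Alternatives were other scalings, DESeq2 1.42.0, limma-voom 3.58.1, other filters, unstranded counts, a replicate block, each library left out, and a length and GC correction. The procedure was tested on simulated counts.

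Named were the 8 factors, *Hnf4a*, up to 4 called genes per list by p-value and the 3 profiles nearest to the factor of smallest p. The transferrin gene, listed as *Tf*, was matched as *Trf*. The members and lists were chosen with earlier results of these data known. Some genes are in more than 1 list, and some list members are not reported here. Other genes with at least 90% identity over 100 bases to a factor's longest transcript were *Gm20649* and *Prox1os*, which overlap in position.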

Additional observations from a re-analysis of the deposited data

How the results depend on the processing

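Among the 8 factors, calls changed only when a library was left out. Leaving out 1 library at a time gave 0 to 2 called factors, against 1 with all 6, and 201 to 355 called genes, against 396. It gave log2 fold changes of -0.14 to 0.043 for *Foxa3*, which changed sign without C75S replicate 1 or WT replicate 1. The fits that call 0 factors are those without C75S replicate 1, WT replicate 2 or WT replicate 3. These fits have fewer samples. Under the other 10 alternatives, which kept all libraries, *Prox1* was the 1 factor called, and no factor changed sign. Nothing in the labels says that equal replicate numbers share an animal or a day, so the numbers were not treated as pairs. The deviations of same-numbered libraries had correlations of 0.013, -0.031 and 0.033, which does not settle whether they were paired. Over all genes, 573 were called without the filter, 348 in DESeq2 and 480 with the replicate block, in which *Prox1* was at -0.21 (edgeR adjusted p = 0.0153). With 3 libraries a genotype, the 95% intervals of the 7 factors that were not called still include changes of up to 0.44 on the log2 scale.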
